A study of Danio rerio with 18 samples.

Results

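A set of 10 genes that mark neutrophils and macrophages were followed in whole-body RNAseq of sox10 mutant zebrafish. They are mpx, lyz, csf3r, mpeg1.1, marco, lcp1, coro1a, spi1b, mmp9 and mmp13a, and they were picked by gene symbol from the tables deposited for 45 hpf and 4 dpf. All 10 were listed once in each table, among 25581 genes in all. Libraries were made from pools of whole fish, with 3 pools per genotype in each table. The mutants are labelled sox10-/-. The main allele of the study is ci3020, which lacks the first coding exon and some of the leader before it but is still transcribed, and its methods give stage-matched siblings or cousins as the wild types (WT) at 4 dpf. A pool held 10 to 15 mutants and 10 to 25 WT at 45 hpf, and 10 to 12 mutants and 10 to 15 WT at 4 dpf. The labels give no treatment. The lines deposited for 7 dpf repeat the values of the 4 dpf table in 25896 of 25896 lines, so they were not used, and which stage those values were measured at cannot be told apart.

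Neutrophils and macrophages are the phagocytes of innate immunity. The first ones of the zebrafish embryo come from lateral plate mesoderm and not from neural crest, the lineage that Sox10 is best known for. Neutrophils carry granules of lysozyme and peroxidase and leave the blood-forming tissue under granulocyte colony-stimulating factor, whereas macrophages spread through the embryo early, take up dead cells and microbes and give rise to microglia. The comparison asks whether whole-body levels of their transcripts differed between genotypes, and between the tables.

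Values are TPM, abundances scaled to a fixed sum within a library, which are corrected for transcript length, so levels of different genes can be set side by side. A gene was tested with limma on log2(TPM + 1) if it reached 1 TPM in 3 of 6 libraries, and it is said to have risen or fallen where the adjusted P was at most 0.05 and the change at least 0.32 on the log2 scale. Most genes were lower in the mutant libraries of both tables. The median log2 difference of all tested genes was -0.25 at 45 hpf and -0.33 in the 4 dpf table, and it came to 0.00 in both after the libraries were rescaled by the median of their ratios. Genes above 10000 TPM took 12.5 to 27.9% of the TPM of mutant libraries and 11.7 to 17.2% of WT libraries at 45 hpf. At 4 dpf they took 25.8 to 42.5% in mutant libraries and 17.6 to 20.4% in WT libraries. The part of these shares in the shift was not tested, and rescaled values are given beside many of the deposited ones. sox10 itself had 11.2, 9.14 and 6.61 TPM in mutants and 9.47, 14 and 11.7 TPM in WT at 45 hpf, so its level does not check the labels.

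By group means lyz was the most abundant of the 10 genes in every group, and lcp1 came next. At 45 hpf the libraries of each were clear of the next gene in both genotypes. At 4 dpf lyz overlapped with lcp1 and lcp1 with spi1b in mutants, and lcp1 overlapped with marco in WT. At 45 hpf the mean of lyz was 13.3 ± 3.5 TPM in mutants and 28.7 ± 3.6 TPM in WT (SD, n = 3 each). mmp13a and csf3r were the 2 lowest at 45 hpf and stayed at or under 0.108 TPM there. The genes between them, from marco to mpx, had overlapping libraries from one rank to the next in mutants at 45 hpf. Of the 10 genes, 4 (lyz, lcp1, coro1a and spi1b) passed the filter at 45 hpf, and marco and mmp9 joined them in the 4 dpf table. mpx, csf3r, mpeg1.1 and mmp13a lay under the filter in both tables and were compared by an exact permutation test, which cannot go below 0.1 with 3 libraries against 3.

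**Figure D1:**
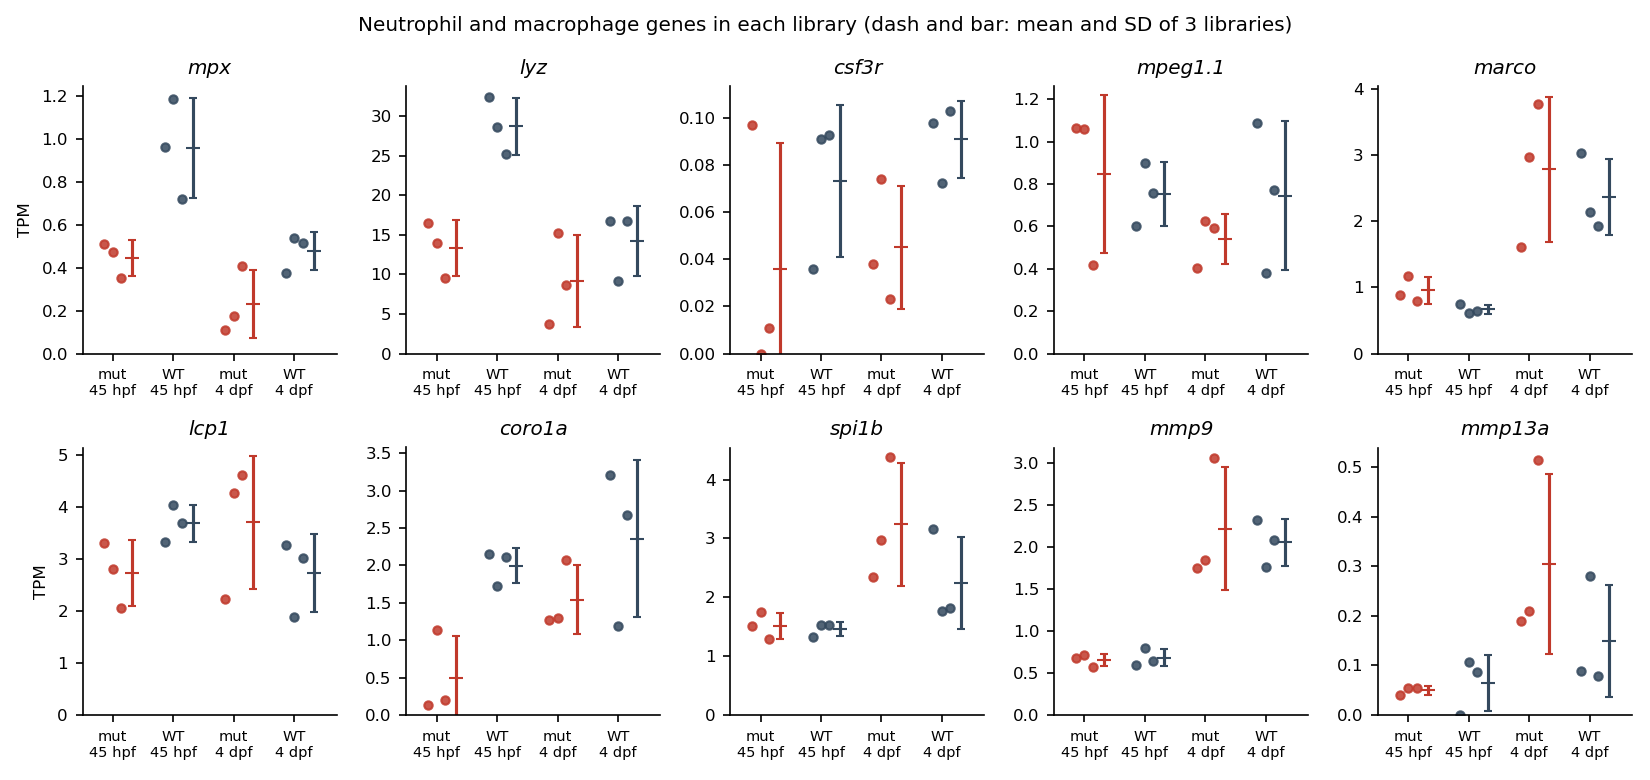
TPM of each gene by library, with mutant (red) left of WT (blue) for the 45 hpf and 4 dpf tables. Points are libraries and the dash with its bar gives the mean and SD of 3 libraries, cut at 0. All mutant libraries of mpx, lyz, lcp1 and coro1a lie under all WT libraries at 45 hpf, and no gene separates the genotypes in the 4 dpf table.

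The neutrophil genes lyz and mpx were lower in mutants at 45 hpf. lyz encodes lysozyme, an enzyme of neutrophil granules that cuts bacterial cell walls. It had 16.45, 14 and 9.49 TPM in mutants, against 32.4, 28.6 and 25.2 TPM in WT. All 3 mutant libraries lay under all 3 WT libraries, and lyz fell by 1.08 on the log2 scale (SE 0.21, adjusted P = 0.0457). Of all tested genes, 0.499% fell and 0.0587% rose in that comparison, and lyz was the one of the 4 tested members that did. In whole fish, fewer cells of a type and less RNA per cell cannot be told apart. The call on lyz was close to the threshold. After rescaling the difference was -0.80 (SE 0.15, adjusted P = 0.076), and the genes past the thresholds then made up 0.634% of those tested. Without mutant replicate 3 it was -0.87 (adjusted P = 0.162), without mutant replicate 2 it was -1.13 (adjusted P = 0.10) and without WT replicate 1 it was -0.99 (adjusted P = 0.108).

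mpx encodes myeloperoxidase, which makes hypochlorous acid in neutrophils. It had 0.51, 0.474 and 0.353 TPM in mutants and 0.963, 1.19 and 0.722 TPM in WT at 45 hpf. Here too no mutant library reached the lowest WT library, and the mutant mean was 0.465 of the WT mean (0.566 after rescaling; exact permutation P = 0.1, the smallest possible). csf3r, the receptor for granulocyte colony-stimulating factor, was at 0.0971, 0 and 0.011 TPM in mutants and at 0.036, 0.0908 and 0.0925 TPM in WT. At this level the genotypes overlapped, and a difference was not detectable.

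In the 4 dpf table lyz, mpx and csf3r did not separate the genotypes. lyz had 3.67, 15.3 and 8.62 TPM in mutants and 16.8, 9.12 and 16.7 TPM in WT. The second mutant library was above the lowest WT library, and the log2 difference was -0.71 (SE 0.46, adjusted P = 0.263), or -0.35 after rescaling. mpx was at 0.109, 0.176 and 0.409 TPM in mutants and at 0.374, 0.54 and 0.514 TPM in WT, with 1 mutant library inside the WT range (exact permutation P = 0.2). csf3r was at 0.0378, 0.074 and 0.0231 TPM in mutants and at 0.0976, 0.0722 and 0.103 TPM in WT (exact permutation P = 0.2). None of the 6 tested members passed the thresholds in this table, where 18.8% of all tested genes fell and 1.56% rose. Those shares, also used for the lists below, depended strongly on the settings. With no filter 17 genes fell and 3 rose of 24775, and with a block on replicate number 2 fell and 0 rose of 17291. As deposited, 0 of the 6 had an unadjusted P under 0.05, beside 7376 of 17291 tested genes. After rescaling the call rate over all genes was 0.231% and the count of members remained 0. Then 2 of the 6 (spi1b and lcp1) had an unadjusted P under 0.05, beside 6906 of 17291 tested genes.

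coro1a, the actin regulator coronin 1A that leukocytes use to move and to take up particles, had the smallest ratio of mutant to WT mean of the tested genes at 45 hpf. It had 0.137, 1.14 and 0.201 TPM in mutants and 2.15, 1.73 and 2.12 TPM in WT. The mutant libraries were all lower, but they spread widely, with the second one far above the others. The mutant mean was 0.246 of the WT mean (0.302 after rescaling), and the log2 difference of -1.07 (SE 0.24, adjusted P = 0.0765) missed the threshold. coro1a passed the filter on account of its WT libraries, so that it was tested at all depended on the difference. It passed the thresholds when certain single libraries were left out, at an adjusted P of 9.9e-04 without mutant replicate 1, of 0.00963 without mutant replicate 2 and of 0.0323 without WT replicate 2. At 4 dpf coro1a was at 1.27, 1.29 and 2.07 TPM in mutants and at 3.2, 1.19 and 2.68 TPM in WT. These ranges overlapped, with a log2 difference of -0.36 (SE 0.28, adjusted P = 0.341).

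lcp1 encodes L-plastin, which bundles actin in all leukocytes. At 45 hpf it had 3.31, 2.82 and 2.05 TPM in mutants and 3.32, 4.04 and 3.68 TPM in WT. The highest mutant library stood just under the lowest WT library, and the log2 difference of -0.34 (SE 0.21, adjusted P = 0.326) came to -0.12 after rescaling, so it was close to that of the typical gene. At 4 dpf lcp1 was at 2.23, 4.26 and 4.61 TPM in mutants and at 3.27, 1.88 and 3.02 TPM in WT, a log2 difference of 0.32 (SE 0.27, adjusted P = 0.388). After rescaling all mutant libraries of this table were above all WT libraries, at 0.62 (SE 0.20, adjusted P = 0.0713).

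spi1b encodes Pu.1, the transcription factor that sets the myeloid fate. At 45 hpf it was at 1.51, 1.74 and 1.29 TPM in mutants and at 1.32, 1.53 and 1.53 TPM in WT. The groups lay on top of each other, with a log2 difference of 0.03 (SE 0.18, adjusted P = 0.92). In the 4 dpf table it was at 2.34, 2.98 and 4.39 TPM in mutants and at 3.15, 1.77 and 1.81 TPM in WT. The log2 difference was 0.38 (SE 0.25, adjusted P = 0.267), and after rescaling it was 0.68 (SE 0.20, adjusted P = 0.066) with all mutant libraries above all WT libraries.

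The macrophage genes marco and mpeg1.1 did not show lower values in mutants at 45 hpf. marco, a scavenger receptor by which macrophages bind bacteria and debris, had 0.89, 1.17 and 0.794 TPM in mutants and 0.748, 0.608 and 0.639 TPM in WT. All 3 mutant libraries were higher, with a mean 1.43 times that of WT (1.75 after rescaling; exact permutation P = 0.1). mpeg1.1 encodes perforin-2, a pore-forming protein of macrophages, and it was at 1.07, 1.06 and 0.417 TPM in mutants and at 0.601, 0.902 and 0.756 TPM in WT. Of the mutant libraries 2 were above and 1 was below the WT range (exact permutation P = 0.8). At 4 dpf neither gene separated the genotypes. marco was at 1.6, 2.97 and 3.77 TPM in mutants and at 3.02, 2.14 and 1.93 TPM in WT (log2 difference 0.14, SE 0.26, adjusted P = 0.703). mpeg1.1 was at 0.406, 0.626 and 0.59 TPM in mutants and at 1.09, 0.381 and 0.77 TPM in WT (exact permutation P = 0.5). Reads of mpeg1.1 may be shared with its tandem copy mpeg1.2, so how they were split between the copies is uncertain.

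The matrix metalloproteinases that leukocytes secrete did not separate the genotypes. mmp9, a gelatinase, was at 0.678, 0.712 and 0.573 TPM in mutants and at 0.601, 0.799 and 0.649 TPM in WT at 45 hpf (exact permutation P = 0.7). At 4 dpf it was at 1.75, 1.84 and 3.06 TPM in mutants and at 2.32, 1.76 and 2.09 TPM in WT (log2 difference 0.05, SE 0.20, adjusted P = 0.85). The libraries of the genotypes interleaved in both tables. mmp13a, a collagenase, was at 0.0401, 0.0547 and 0.0546 TPM in mutants and at 0, 0.108 and 0.0873 TPM in WT at 45 hpf. It was at 0.19, 0.21 and 0.514 TPM in mutants and at 0.0895, 0.281 and 0.0781 TPM in WT in the 4 dpf table (exact permutation P = 0.3).

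Counted over the 10 genes, all mutant libraries were under all WT libraries at 45 hpf for 4 (mpx, lyz, lcp1 and coro1a), and above them for 1 (marco). Among all detected genes the same held for 20.2% and 2.22%. After rescaling 4 members lay below and 2 above (marco and spi1b), against 12.2% and 13% of all detected genes. At 4 dpf 0 members lay below and 0 above, against 37.2% and 5.3% of all detected genes. After rescaling it was 0 below and 2 above (lcp1 and spi1b), against 20.6% and 17.4%. These are counts over a handful of genes that share their libraries and were chosen with results of these data known, and no test was made on them.

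**Figure D2:**
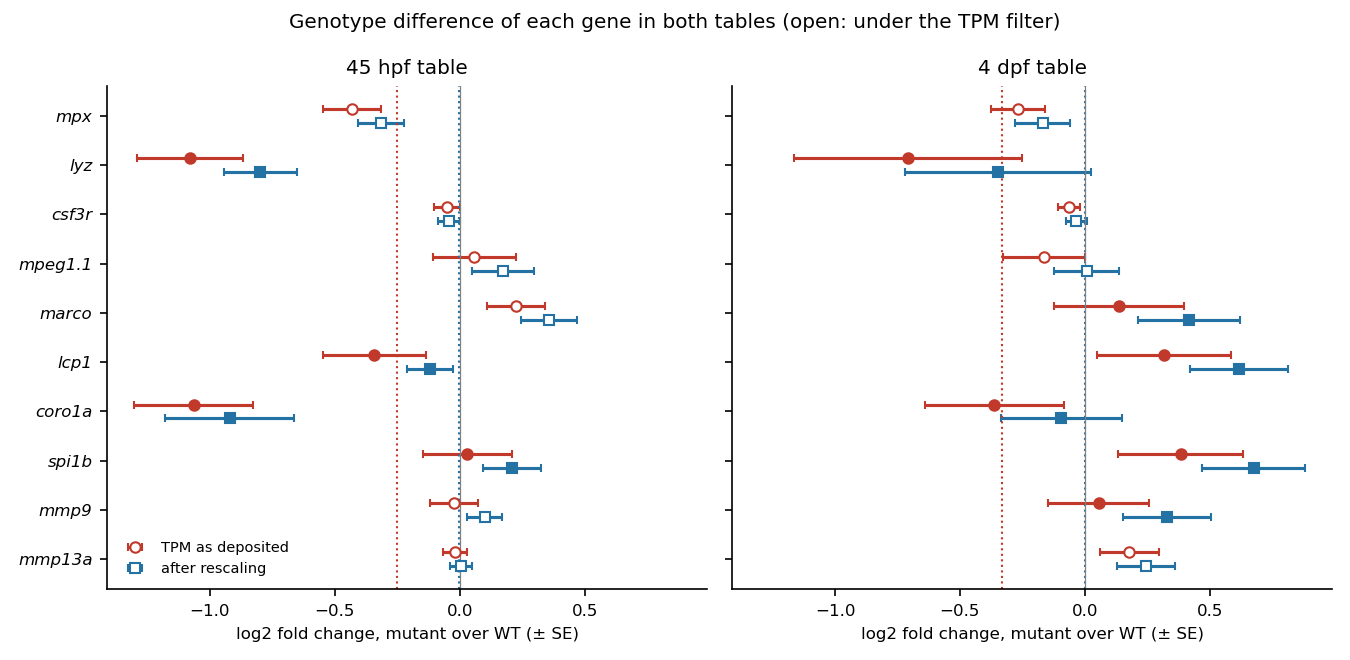
Log2 fold change of each gene, mutant over WT, in the 45 hpf table (left) and the 4 dpf table (right), with its standard error. Circles are deposited TPM and squares are rescaled values, open symbols are genes under the TPM filter, and dotted lines mark the median of all tested genes. lyz lies at -1.08 at 45 hpf, or -0.80 after rescaling, next to coro1a. In the 4 dpf table spi1b, lcp1, marco, mmp9 and mmp13a lie above 0 as deposited, and no tested member passed the thresholds there.

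Scaling of a library cancels in the ratio of a pair of genes within it. Such ratios were formed after the values had been seen, and are given as a description without a test. How often other pairs of genes separate the genotypes was not tested. At 45 hpf the ratio of lyz to lcp1 was 4.97, 4.97 and 4.63 in mutants and 9.74, 7.08 and 6.84 in WT. The 4 dpf table gave 1.65, 3.58 and 1.87 in mutants and 5.12, 4.86 and 5.54 in WT. Relative to L-plastin, lysozyme was thus lower in every mutant library of each table, with a mutant over WT ratio of 0.623 at 45 hpf and 0.431 in the 4 dpf table. Against spi1b, lyz was also lower in all mutant libraries of both tables, with geometric means of 8.63 in mutants and 19.7 in WT at 45 hpf and of 2.51 in mutants and 6.33 in WT in the 4 dpf table. The gap between the groups was narrow at 4 dpf, with 5.12 in the highest mutant library and 5.16 in the lowest WT library. The ratio of coro1a to lcp1 behaved in the same way, at 0.0412, 0.405 and 0.0981 in mutants and 0.647, 0.427 and 0.574 in WT at 45 hpf, and at 0.567, 0.304 and 0.448 in mutants and 0.978, 0.633 and 0.885 in WT in the 4 dpf table. These 3 ratios share lyz or lcp1, and lcp1 and spi1b were on the high side of the mutants in the 4 dpf table.

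The ratio of the neutrophil gene mpx to the macrophage gene mpeg1.1 had a geometric mean of 0.566 in mutants and 1.26 in WT at 45 hpf, with no overlap. It was 0.373 in mutants and 0.689 in WT in the 4 dpf table, with overlap. Ratios of marco and mmp9 to lcp1 went the other way at 45 hpf. marco to lcp1 was 0.351 in mutants and 0.18 in WT, and mmp9 to lcp1 was 0.244 in mutants and 0.185 in WT, both without overlap. At 4 dpf marco to lcp1 was 0.743 in mutants and 0.876 in WT, and mmp9 to lcp1 was 0.608 in mutants and 0.771 in WT, with overlapping libraries.

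**Figure D3:**
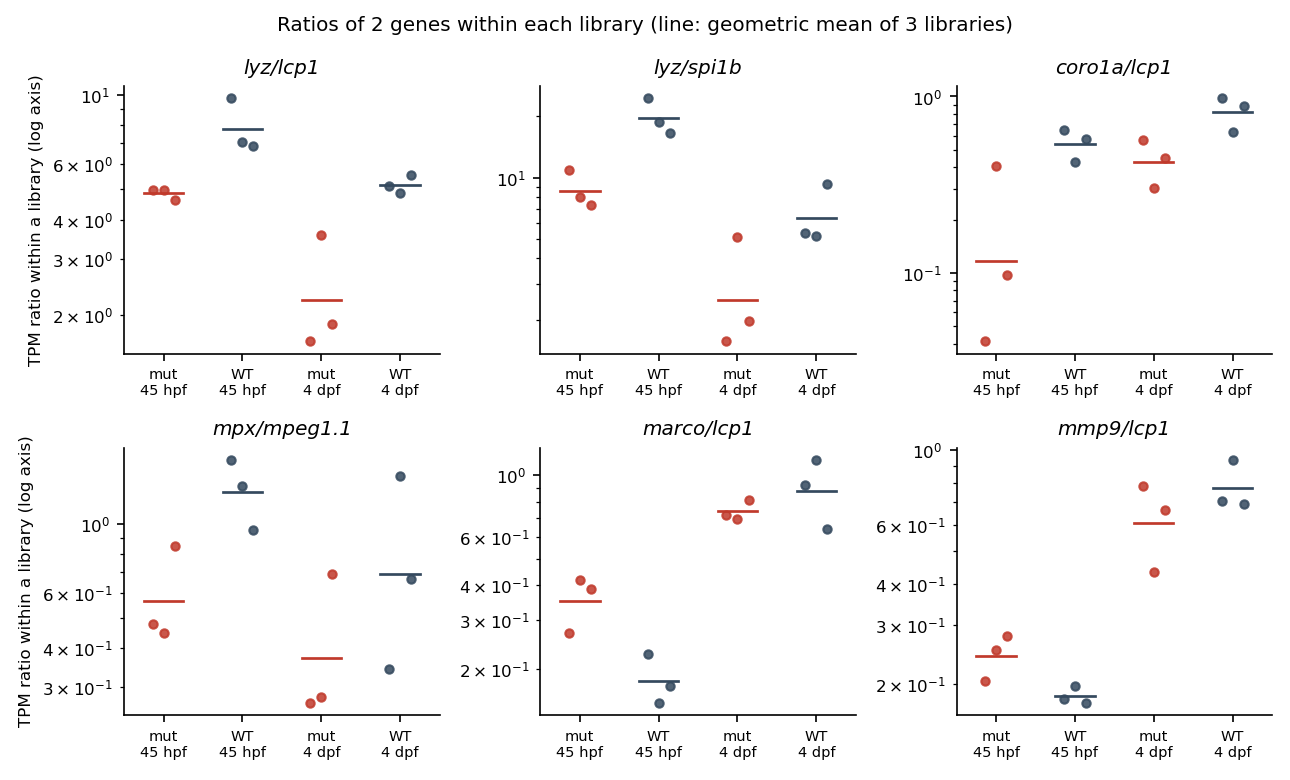
Ratio of the TPM of 2 genes within each library on a log axis, with mutant (red) left of WT (blue) for the 45 hpf and 4 dpf tables. Points are libraries and lines are geometric means of 3 libraries. lyz to lcp1, lyz to spi1b and coro1a to lcp1 lie lower in all mutant libraries of both tables, and the other 3 ratios separate the genotypes at 45 hpf alone. The pairs were chosen after the values had been seen, and how often other pairs separate the genotypes was not tested.

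Between the tables the members moved apart from each other. The 12 libraries were fitted together, with genes at 1 TPM in 6 of 12, and stage and table cannot be told apart. mmp9 and marco were higher at 4 dpf than at 45 hpf in both genotypes. mmp9 rose by 0.94 (SE 0.17, adjusted P = 3.4e-04) in mutants and by 0.86 (SE 0.17, adjusted P = 6.1e-04) in WT on the log2 scale. marco rose by 0.91 (SE 0.21, adjusted P = 0.00233) in mutants and by 1.00 (SE 0.21, adjusted P = 0.00117) in WT. The 4 dpf mean of marco was 2.92 times that at 45 hpf in mutants and 3.56 times in WT, since a log2(TPM + 1) value understates the change of a low gene. Both genes passed the filter through the 4 dpf libraries, so being tested and being higher were not independent for them.

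spi1b rose by 0.73 (SE 0.21, adjusted P = 0.00809) in mutants, and the difference in WT was 0.38 (SE 0.21, adjusted P = 0.13). All 4 dpf libraries of spi1b were above all 45 hpf libraries in each genotype, and after rescaling WT passed as well (0.50, adjusted P = 0.0223). coro1a rose by 0.82 (SE 0.28, adjusted P = 0.0209) in mutants, with a difference of 0.11 (SE 0.28, adjusted P = 0.738) in WT. The rise of coro1a in mutants was lost without mutant 45 hpf replicate 1 (0.65, adjusted P = 0.0868), without mutant 45 hpf replicate 3 (0.69, adjusted P = 0.0752) and without mutant 4 dpf replicate 3 (0.67, adjusted P = 0.0854). lcp1 differed by 0.31 (SE 0.23, adjusted P = 0.266) in mutants and by -0.35 (SE 0.23, adjusted P = 0.211) in WT, and in mutants it passed after rescaling (0.66, adjusted P = 0.00213).

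lyz went the other way. The difference in mutants was -0.64 (SE 0.38, adjusted P = 0.158), and in WT lyz fell by 1.01 (SE 0.38, adjusted P = 0.0336), with all 4 dpf libraries below all 45 hpf libraries. After rescaling it fell by 0.78 in WT (adjusted P = 0.0376). The adjusted P in WT was above 0.05 without 45 hpf replicate 1 (0.0917), replicate 2 (0.0707) or replicate 3 (0.0503), or without 4 dpf replicate 2 (0.128). The 4 dpf mean of mpx was 0.519 times that at 45 hpf in mutants, with overlap. In WT it was 0.497 times that at 45 hpf, with all 4 dpf libraries lower, but the groups overlapped after rescaling. mmp13a was higher in all mutant libraries of the 4 dpf table than at 45 hpf (exact permutation P = 0.1) and overlapped in WT (exact permutation P = 0.5). mpeg1.1 overlapped between the tables in both genotypes.

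In mutants 4 of the 6 tested members rose and 0 fell, and in WT 2 rose and 1 fell. Over all genes 20.7% rose and 42.9% fell in mutants, and 25.5% rose and 37.9% fell in WT. After rescaling 66.8% of all genes changed in mutants and 67.6% in WT, so a call between the tables was the rule for any gene. The member counts include mmp9 and marco, which passed the filter through the 4 dpf libraries. With no filter 4 of the 10 members rose and 0 fell in mutants, beside 17.4% and 31% of all genes. In WT 2 of the 10 rose and 2 fell, beside 22.8% and 28.3% of all genes. Whether the genotype effect differed between the tables was tested as an interaction. 0 of the 6 members passed in limma, while 0.264% of all genes passed. An unadjusted P under 0.05 was found for 0 of the 6, beside 2620 of 17403 genes. The largest interaction was that of coro1a, at 0.70 (SE 0.39, adjusted P = 0.408), followed by lcp1 at 0.66 (SE 0.33, adjusted P = 0.364). After rescaling lcp1 was at 0.82 (SE 0.21, adjusted P = 0.0775). Of the 6, 3 then had an unadjusted P under 0.05, beside 4178 of 17403 genes. The separation of lyz and coro1a at 45 hpf and its absence in the 4 dpf table are therefore not shown to differ.

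**Figure D4:**
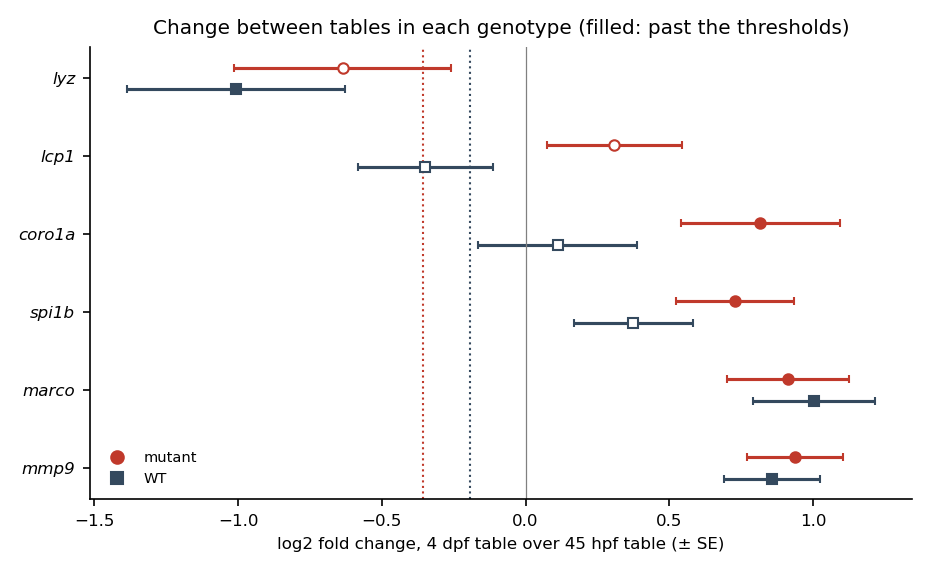
Log2 fold change of the 6 tested genes between the tables, 4 dpf over 45 hpf, in mutants (red circles) and WT (blue squares), with standard errors. Filled symbols passed the thresholds and dotted lines mark the median of all genes. marco and mmp9 lie near 0.9 to 1 in both genotypes and lyz lies below 0 in both.

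Other genes linked to these cells were read from lists that had been drawn up with results of these data known. Of 17 listed neutrophil genes 13 were tested at 45 hpf. Among them 0 rose and 0 fell, beside 0.0587% and 0.499% of all tested genes. Their median log2 difference was -0.26 beside -0.25 for all genes. npsn, a protease of neutrophil granules, came closest to the pattern of lyz. It had 4.4, 4.29 and 3.13 TPM in mutants and 6.09, 6.5 and 5.7 TPM in WT, without overlap. The log2 difference of npsn was -0.53 (SE 0.20, adjusted P = 0.187), or -0.29 after rescaling (adjusted P = 0.175). At 4 dpf npsn overlapped (4.66 ± 1.11 TPM in mutants and 6.01 ± 1.5 TPM in WT, SD, n = 3 each). As a list these genes thus sat at the median of all genes at 45 hpf. At 4 dpf 11 were tested, of which 1 fell and 1 rose, beside 18.8% and 1.56% of all tested genes. nccrp1, a surface protein of cytotoxic cells in fish, averaged 5.18 ± 1.39 TPM in mutants and 9.76 ± 1.11 TPM in WT (log2 difference -0.82, adjusted P = 0.0431). abcb9, a lysosomal peptide transporter, averaged 5.75 ± 1.53 TPM in mutants and 3.07 ± 0.33 TPM in WT (log2 difference 0.71, adjusted P = 0.047). Neither passed after rescaling (adjusted P = 0.0824 for nccrp1 and 0.057 for abcb9). cfl1l averaged 85 ± 48.5 TPM in mutants and 156.5 ± 6.4 TPM in WT in the 4 dpf table, with all mutant libraries lower. Its log2 difference was -1.09 (SE 0.47, adjusted P = 0.123), or -0.69 after rescaling (adjusted P = 0.218).

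Of 26 listed macrophage and microglia genes 11 were tested at 45 hpf. Among them 0 rose and 0 fell, beside 0.0587% and 0.499% of all tested genes. Their median was 0.08 beside -0.25 for all genes. The macrophage list and marco thus both sat above the typical gene at that age. At 4 dpf 14 were tested, 2 fell and 0 rose, beside 18.8% and 1.56% of all tested genes, and the median was -0.22 beside -0.33. timd4, a receptor for dying cells on tissue macrophages, averaged 3.10 ± 0.82 TPM in mutants and 6.83 ± 1.35 TPM in WT (log2 difference -0.94, adjusted P = 0.0431). slc43a2b, an amino acid transporter found in microglia, averaged 19.3 ± 1.9 TPM in mutants and 38.4 ± 4.4 TPM in WT (log2 difference -0.96, adjusted P = 0.0431). After rescaling both missed the threshold, with an adjusted P of 0.0753 for timd4 and of 0.0594 for slc43a2b. mpeg1.2, the tandem copy of mpeg1.1, had 0.212, 1.54 and 1.87 TPM in mutants and 5.10, 2.42 and 2.28 TPM in WT in the 4 dpf table. As deposited its libraries did not overlap, but after rescaling mutant replicate 3 came above WT replicate 3. Its log2 difference was -0.98 (adjusted P = 0.0976), or -0.77 after rescaling (adjusted P = 0.159). In the same table ctss2.2 averaged 6.86 ± 3.51 TPM in mutants and 14.2 ± 2.1 TPM in WT, without overlap. Its log2 difference was -1.06 (SE 0.36, adjusted P = 0.0707), or -0.71 after rescaling (adjusted P = 0.135).

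Many macrophage and microglia genes were higher at 4 dpf than at 45 hpf in both genotypes. With no filter on TPM, so that all 26 listed genes entered limma, 14 rose and 3 fell in mutants, beside 17.4% and 31% of all genes, with a median log2 change of 0.53 (all genes -0.08). In WT 15 rose and 1 fell, beside 22.8% and 28.3% of all genes, with a median of 0.52 (all genes -0.01). 12 of the 26 passed the filter, and lgals9l1 and mrc1b passed it through 4 dpf libraries alone. apoeb, a lipid carrier made by microglia and by other tissues, rose by 2.48 in mutants (adjusted P = 2.8e-07) and by 2.87 in WT (adjusted P = 5.0e-08). ccl34b.1, a chemokine of microglia, rose by 3.07 in mutants (adjusted P = 6.9e-07) and by 2.98 in WT (adjusted P = 6.3e-07). marco followed the same direction, and mpeg1.1 did not separate the tables. ctss2.1, a cathepsin, fell in mutants (log2 change -0.61, adjusted P = 0.0349), and its call was lost after rescaling (adjusted P = 0.0661). The neutrophil list did not fall as lyz did in WT. With no filter 4 of its 17 genes rose and 1 fell in mutants, beside 17.4% and 31% of all genes. In WT 3 of the 17 rose and 1 fell, beside 22.8% and 28.3% of all genes. The medians were 0.19 in mutants (all genes -0.08) and 0.22 in WT (all genes -0.01). nccrp1, abcb9 and the leukocyte integrin gene itgb2 rose in both genotypes. As described here, these genes are not confined to neutrophils, so the list cannot be read as a measure of neutrophils alone.

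csf1ra, the receptor for the growth factor of macrophages, is also used by xanthophores, pigment cells that come from the neural crest. It was at 0.455, 0.193 and 0.127 TPM in mutants and at 0.575, 0.892 and 0.757 TPM in WT at 45 hpf. In the 4 dpf table it was at 0.0434, 0.485 and 0.301 TPM in mutants and at 1.16, 0.507 and 1.51 TPM in WT. As deposited, all mutant libraries of csf1ra were below all WT libraries in both tables. The same held for 20.2% of all detected genes at 45 hpf and 37.2% at 4 dpf. After rescaling mutant replicate 2 came above WT replicate 2 at 4 dpf, so the groups overlapped there. csf1ra lay under the filter for testing. Of the listed pigment cell genes, 4 of 11 tested fell at 45 hpf, beside 0.499% of all tested genes, and 0 rose. At 4 dpf 5 of 8 fell, beside 18.8% of all tested genes, and 0 rose. After rescaling 4 of 11 fell at 45 hpf and 1 of 8 in the 4 dpf table. Their part in the level of csf1ra was not tested.

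The leukocyte list held genes that other cells also express. Of its 10 tested genes 0 passed at 45 hpf, where 0.499% of all tested genes fell and 0.0587% rose. Their median was -0.09 beside -0.25 for all genes. At 4 dpf 0 of 15 passed, where 18.8% of all tested genes fell and 1.56% rose. The median there was 0.10 beside -0.33 for all genes. ptprc, the CD45 phosphatase of all leukocytes, had 2.28, 2.74 and 4.82 TPM in mutants and 1.99, 1.78 and 1.36 TPM in WT in the 4 dpf table, without overlap. The log2 difference of ptprc was 0.62 (SE 0.25, adjusted P = 0.098), or 0.90 after rescaling (adjusted P = 0.0581). A negative difference was found for 7 of the 15, beside 77.4% of all tested genes. After rescaling 3 of the 15 were negative, beside 49.8%, and the list median was 0.34 beside 0.00 for all genes. cebpa, a transcription factor of myeloid cells and of other tissues, averaged 3.5 ± 0.3 TPM in mutants and 5.38 ± 1.11 TPM in WT in the 4 dpf table. As deposited all its mutant libraries were lower (log2 difference -0.49, SE 0.18, adjusted P = 0.0826). After rescaling the difference was -0.16 (adjusted P = 0.509). cebpb, another factor of this family, was at -1.60 (SE 0.74, adjusted P = 0.142), with overlap, or at -1.21 after rescaling (adjusted P = 0.304). At 45 hpf ptprc was at 0.909, 1.29 and 0.591 TPM in mutants and at 0.774, 1.02 and 0.533 TPM in WT, with overlap.

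Of the ligands and cytokines that act on these cells, 0 of 6 tested passed at 45 hpf and 0 of 10 in the 4 dpf table. Of all tested genes, 0.499% fell and 0.0587% rose at 45 hpf, and 18.8% and 1.56% in the 4 dpf table. csf3a, a granulocyte colony-stimulating factor and thus a ligand of the receptor that csf3r encodes, averaged 2.62 ± 0.36 TPM in mutants and 1.6 ± 0.07 TPM in WT in the 4 dpf table. Its libraries did not overlap, and the log2 difference was 0.47 (SE 0.16, adjusted P = 0.0647), or 0.74 after rescaling (adjusted P = 0.057). At 45 hpf csf1a averaged 1.31 ± 0.28 TPM in mutants and 2.28 ± 0.5 TPM in WT, without overlap. The log2 difference of csf1a was -0.50 (SE 0.20, adjusted P = 0.197), or -0.32 after rescaling (adjusted P = 0.281). Of the other matrix metalloproteinases and their inhibitors, 0 of 15 tested passed at 45 hpf. At 4 dpf 4 of 14 fell (mmp17a, mmp24, mmp30 and timp2a), beside 18.8% of all tested genes. After rescaling 0 of 14 passed, beside 0.231% of all tested genes. mmp17a averaged 0.37 ± 0.23 TPM in mutants and 1.91 ± 0.92 TPM in WT. mmp24 averaged 0.69 ± 0.66 TPM in mutants and 5.14 ± 3.28 TPM in WT. Both passed the filter on account of their WT libraries. Being tested and being lower were therefore not independent for mmp17a and mmp24.

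**Figure D5:**
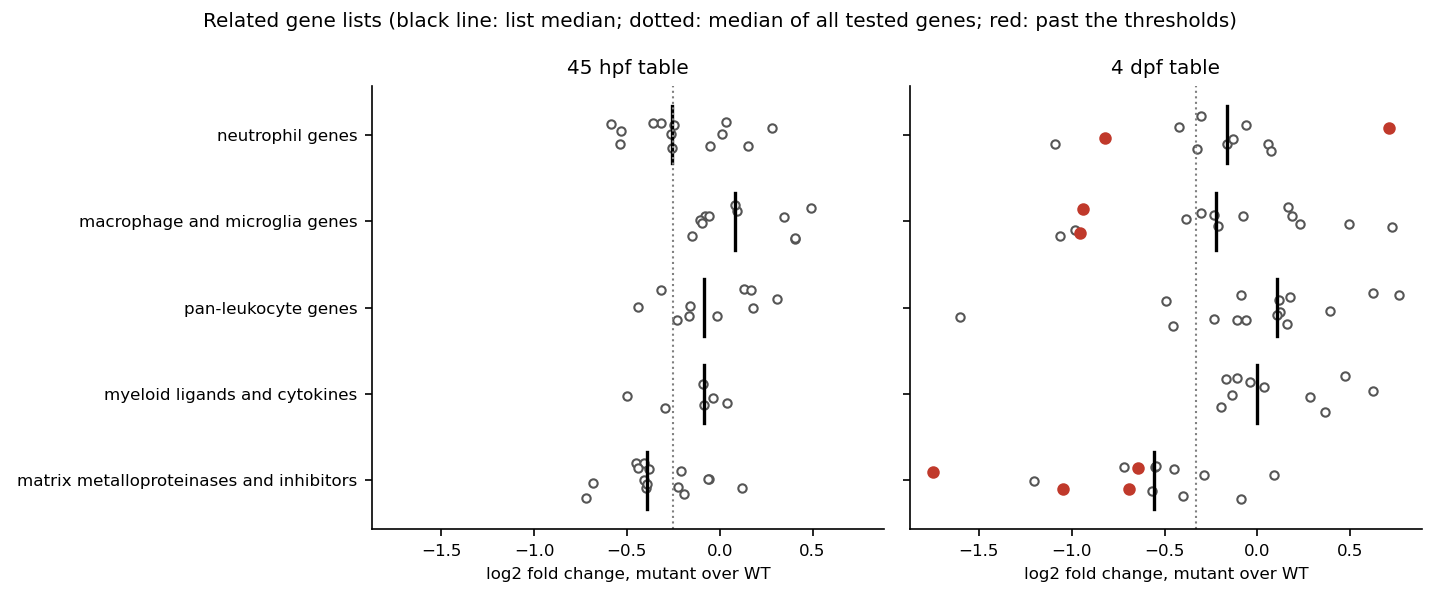
Log2 fold change, mutant over WT, of the tested genes of 5 lists in the 45 hpf table (left) and the 4 dpf table (right). Each point is a gene, red points passed the thresholds, black lines are list medians and dotted lines the median of all tested genes. No listed gene passed at 45 hpf, and macrophage and microglia genes lie on both sides of 0 in both tables.

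Markers of other cell types in the pools are given for the same libraries. For comparison, 0.499% of all tested genes fell and 0.0587% rose at 45 hpf, and 18.8% and 1.56% in the 4 dpf table. Blood progenitor and erythroid genes summed to 1086 to 1961 TPM in mutants and 1244 to 1929 TPM in WT at 45 hpf, and to 204 to 438 TPM in mutants and 217 to 384 TPM in WT in the 4 dpf table, and 0 of 10 and 0 of 7 tested passed. Lymphocyte genes summed to 5.47 to 8.57 TPM in mutants and 9.01 to 11.6 TPM in WT at 45 hpf, and 0 of 2 tested passed. They summed to 5.03 to 7.42 TPM in mutants and 7.58 to 8.33 TPM in WT in the 4 dpf table, and 0 of 3 tested passed. Of the 13 lymphocyte genes 11 averaged under 1 TPM in each genotype at 45 hpf. There pax5 alone averaged 3.25 TPM in mutants and 5.82 TPM in WT, out of mean sums of 6.95 and 9.99 TPM. The sums at 45 hpf thus rest in large part on pax5 and cannot be read as a measure of lymphocytes. Whether the number of lymphocytes differed was not tested. Epidermal genes, by far the most abundant of these, summed to 4492 to 7163 TPM in mutants and 4670 to 6745 TPM in WT at 45 hpf. At 4 dpf they summed to 2379 to 8063 TPM in mutants and 5902 to 9662 TPM in WT, and 11 of 11 had a negative log2 difference (0 passed), beside 77.4% of all tested genes. After rescaling 9 of 11 were negative, beside 49.8%. Their part in the values of the 10 genes was not tested.

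Across the 12 libraries, deviations from the group means were compared after rescaling, as a description of genes that share libraries and depth. Among the 10 genes marco and spi1b were the most alike (Pearson r = 0.83), followed by spi1b and mmp9 (r = 0.79), and mmp9 and csf3r the least (r = -0.66). lyz and lcp1 had an r of 0.71. Of 10746 genes with a mean of at least 5 TPM, apoa4b.1 (r = 0.94), ugdh (r = 0.94), LOC110440168 (r = 0.89), asns (r = 0.87) and si:ch211-221j21.3 (r = 0.86) were most like mpx. hspb9l (r = 0.90), zgc:158423 (r = 0.88), si:dkeyp-38g8.5 (r = 0.86), arhgdig (r = 0.84) and yjefn3 (r = 0.81) were most like mpeg1.1. At the low TPM of mpx and mpeg1.1 the deviations include counting noise of unknown size. The genes named are the highest of 10746 over 12 libraries, and how high r would reach by chance was not tested.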

How the data were processed

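Whole-body polyA RNA was sequenced in 18 labelled libraries. Per the labels, the authors trimmed reads with Trimmomatic 0.39 and used kallisto with GRCz11. The version of kallisto, and how transcripts were summed to genes, are not given in the sources used here. The deposited values are TPM per gene and library. TPM keep no read counts, so depth is unknown and precision rests on 3 libraries per group. Where nothing says that pools came from separate clutches, p-values measure only the spread between these samples. Summed TPM ranged from 934603 to 953131. The 315 lines that repeat a gene were dropped, and 12 libraries were analysed.

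log2(TPM + 1) was fitted with limma 3.58.1 (lmFit, eBayes with trend) under R 4.3.3, by genotype within a table, or by 4 groups over 12 libraries for changes between tables. Adjustment of P over all tested genes followed Benjamini and Hochberg. Genes under the filter were compared by two-sided exact permutation tests (scipy 1.17.1, Python 3.11.15). Other steps used numpy 2.4.6, pandas 2.3.3 and matplotlib 3.10.9. The fitting steps were also run on simulated data, with changes put into more abundant genes. That run does not bear on genes near the filter, and its outcome is not given here.

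All 10 genes are described. From each list up to 4 genes are named, first those past the thresholds and then some with a large change and no overlap. csf1ra is named as a macrophage marker. Besides these, ctss2.1, ctss2.2, mpeg1.2, cebpa, cebpb, cfl1l, csf1a, itgb2, lgals9l1 and mrc1b were named after their values were seen. Members and lists were chosen with earlier results of these data known. Settings varied were the pseudocount (0.1), the filter (none, or a mean of 5 TPM or more), the scaling (median of ratios, quantiles, or genes above 10000 TPM removed), a block on replicate number, robust eBayes, a fold minimum of 1.5, a fit of 12 libraries and leaving out each library. Rescaling without a filter, alone or over 12 libraries, and ratios within a library were added after the data were seen. Sequences and positions are not used here.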

Additional observations from a re-analysis of the deposited data

How the results depend on the processing

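The number of members past the thresholds at 45 hpf, 1 (lyz) as reported, was 0 with no filter, a pseudocount of 0.1, median-of-ratios rescaling, quantile normalization, genes above 10000 TPM removed, or a fit of all 12 libraries, and 0 in both rescaled fits without a filter that were added after the data were seen. With lyz at -1.08, its log2 difference lay between -1.13 and -0.78 under these settings, and between -1.24 and -0.87 with a library left out. Leaving out each library gave 0 to 2 members at 45 hpf: 0 without WT replicate 1 or mutant replicate 3, and 2 (lyz and coro1a) without WT replicate 2 or mutant replicate 1. Same-numbered mutant and WT libraries showed no clear shared deviation (correlations of -0.61 to -0.01, or -0.64 to 0.01 after rescaling). These correlations cannot tell whether such pools were collected together, and the main fits did not pair them. With the replicate number as a block the count was 2 (lyz and coro1a), and with the replicate block and rescaling it was 0. The block without rescaling called 669 genes lower and 68 higher of 17043 at 45 hpf, beside 85 and 10 in the main fit. In the 4 dpf table the count of 0 became 2 (spi1b and lcp1, higher in mutants) under quantile normalization. It became 4 (spi1b, lcp1, mmp9 and marco, higher in mutants) in the added fit of 12 libraries with rescaling and no filter. It stayed 0 with any library left out. The share of all genes called under quantile normalization, in that added fit or with libraries left out is not given here, so these counts have no background beside them. Between the tables, a mean of at least 5 TPM, which left lyz as the tested member, gave 0 members in mutants and 1 (lyz) in WT. Leaving out libraries gave 2 to 4 in mutants, with 2 (spi1b and marco) without mutant 4 dpf replicate 3, and 1 to 3 in WT, with 1 (marco) without WT 4 dpf replicate 2. mmp9 reached 1 TPM in the 6 libraries of 4 dpf alone, so it was not tested where one of these was left out, and its change in mutants was 0.90 to 0.96 where it was. The interaction count of 0 became 1 (lcp1) under quantile normalization and stayed 0 with libraries left out.

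Some signs turned among differences that had not passed. coro1a in the 4 dpf table, -0.36 as reported, was 0.13 under quantile normalization. The interaction of marco, -0.09 as reported, was 0.17 after rescaling with or without the filter or the block, 0.29 under quantile normalization and 0.076 with genes above 10000 TPM removed, and -0.28 to 0.16 with libraries left out. With libraries left out, spi1b at 45 hpf ranged from -0.034 to 0.10, marco from -0.052 to 0.38 and mmp9 from -0.12 to 0.16 in the 4 dpf table, coro1a between the tables in WT from -0.077 to 0.39 and the interaction of lyz, 0.37 as reported, from -0.055 to 0.85. The cause of these changes was not tested. For single genes 608 alternative values kept direction and side of the threshold, 15 turned sign, 22 lost a call, 21 gained one and 13, without a test, moved by more than the spread between replicates. TPM without counts limit what can be said of csf3r, mmp13a, mpx and mpeg1.1.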
